A study of Mus musculus with 8 samples.

Results

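The 10 genes described here make microRNAs (miRNAs) in mouse cells or carry them to their targets: Dgcr8, Drosha, Xpo5, Dicer1, Tarbp2, Prkra, Ago1, Ago2, Ago3 and Ago4. They were chosen by name, each as its own entry in the deposited expression table, and they are 10 of the 24385 genes in that table. Levels are FPKM, fragments per kilobase of transcript scaled to the library total, so genes of different length can be set side by side, while comparisons between libraries depend on what else fills each library. Averaged over all libraries, 7 of them reached 1 FPKM and were tested, together with every other gene that did, 10018 in total. Ago1, Ago3 and Ago4 were under that level and are given as values.

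RNA was sequenced from hearts of C57BL/6 mouse embryos at embryonic days E8.5 and E9.5. At each stage there were 2 libraries labelled wild type (WT) and 2 labelled Mesp1Cre/+; Dgcr8-/- (conditional knockout, cKO), which the study describes as independent biological replicates. Per the study's methods, embryos called controls carried Dgcr8 loxP/loxP alleles and a Rosa26 mT/mG reporter but no Cre, and cKO embryos carried the same alleles with Mesp1 Cre/+. The groups therefore differ by the Cre allele as well as by the deletion of Dgcr8, and the deletion is limited to descendants of cells that expressed Mesp1, a gene of early cardiovascular mesoderm. The number of embryos per library is not given in the sources used here. In whole hearts, fewer cells of a type and less RNA per cell cannot be told apart.

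miRNA genes are transcribed as long primary transcripts that fold into hairpins. In the nucleus the microprocessor, a complex of the RNA-binding protein DGCR8 and the nuclease DROSHA, cuts the hairpin free, and exportin 5, encoded by Xpo5, carries it to the cytoplasm. There DICER, the product of Dicer1, removes the loop with its partners TRBP (Tarbp2) or PACT (Prkra). The strand that is kept guides an Argonaute protein to matching messenger RNAs, and AGO2 is the Argonaute that can also cut its target. DGCR8 has no known substitute in the canonical pathway, which is why its deletion is used to remove most miRNAs from a tissue.

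The labelled tissue carried its markers: all 9 cardiomyocyte markers were above 1 FPKM in 5 libraries and 8 of the 9 in the other 3, with sums of 25787 to 80268 FPKM, while 4 neural markers summed to at most 2.68 FPKM. The libraries differed in ways that touch every gene. Over tested genes, the median was 7.62 to 9.90 FPKM in the E8.5 libraries and 3.85 to 4.50 in the E9.5 libraries, and features shorter than 300 bp took 15.7% to 54.5% of the summed FPKM of a library. The 5 decidual stroma markers summed to 6603 FPKM in the second E8.5 cKO library, to 759 FPKM in the first and to 507 to 2130 FPKM in the others. Cryab, 1 of the 5, was at 506 to 1455 FPKM over the libraries. It made up nearly all of the sum in the E9.5 libraries and in the first E8.5 cKO library. Prl8a2, a prolactin-family hormone of the decidua, was at 5104 FPKM in the second E8.5 cKO library and at 9.95 FPKM in the first. It was at 449 and 1141 FPKM in E8.5 WT and at 0.746 to 5.09 FPKM in the E9.5 libraries. The 5 uterine natural killer markers summed to 256 FPKM in the first E8.5 WT library and to at most 1.52 FPKM in the other 7. Other marker sums moved with the groups at E9.5. Cardiomyocyte markers summed to 58679 and 56846 FPKM (WT) against 80123 and 80268 FPKM (cKO). The 8 endothelial and endocardial markers summed to 66.2 and 77.3 against 108 and 100.1 FPKM. The 4 epicardial markers summed to 25.3 and 21.1 against 11.5 and 12.6 FPKM. Actc1, Myl7 and Myl4 made up most of the cardiomyocyte sums. Single markers did not all move with their sum. Myh6 was at 916 and 777 FPKM (WT) against 424 and 567 (cKO). Tek was at 5.50 and 6.94 FPKM against 4.45 and 3.51. For Tnnt2, Myh7, Cdh5, Kdr and Emcn the WT and cKO libraries overlapped. Between stages, the 5 yolk sac endoderm markers went from 560 and 1838 FPKM to 5146 and 3923 FPKM in WT. In cKO they went from 4840 and 1455 FPKM to 3090 and 4991 FPKM. The other sums also differed from E8.5, where cardiomyocyte markers summed to 25787 and 42626 FPKM (WT) and 56886.5 and 39219 FPKM (cKO). Endothelial and endocardial sums at E8.5 were 103 and 119 FPKM (WT) and 108 and 73.8 FPKM (cKO), and epicardial sums 8.60 and 7.52 FPKM and 7.72 and 8.61 FPKM. The part of these differences in the results was not tested.

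Over the 8 libraries the order of the mean levels was Tarbp2 (51.1 FPKM), Prkra (21.3), Xpo5 (11.2), Drosha (9.32), Dgcr8 (3.96), Ago2 (2.05), Dicer1 (1.16), Ago1 (0.499), Ago3 (0.266) and Ago4 (0.0383). The genes for the partners of DICER were thus far above the gene for DICER itself, and Tarbp2 was above 94.0% of all genes in the table while Ago4 was above 35.3%. The ranges of the 8 libraries overlapped for every pair of neighbours in this order. Within each library, however, Tarbp2 was above Prkra, Prkra above Xpo5, Drosha above Dgcr8, Ago2 above Dicer1, Dicer1 above Ago1 and Ago3 above Ago4, whereas the order of Xpo5 and Drosha, of Dgcr8 and Ago2, and of Ago1 and Ago3 turned in at least 1 library.

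**Figure D1:**
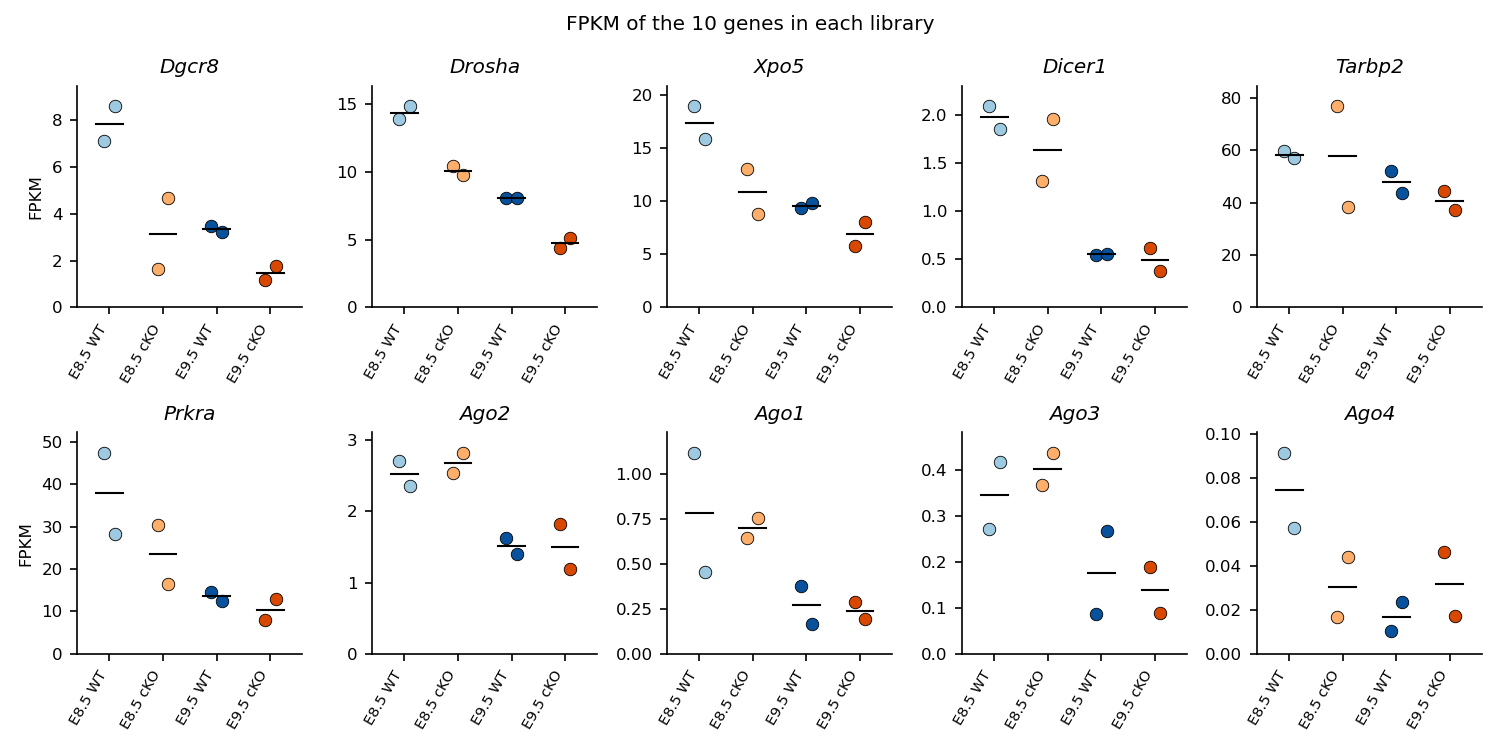
Each panel shows FPKM of 1 gene (linear axis from 0) in the 8 libraries: points are libraries, 2 per group, and lines are group means. Both cKO points lie under both WT points of the same stage for Dgcr8, Drosha and Xpo5, and E9.5 WT points lie under E8.5 WT points in all 10 panels.

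Dgcr8, the targeted gene (chr16:18253965-18289168, GRCm38), was lower in every cKO library than in either WT library of its stage. At E8.5 the WT hearts held 7.10 and 8.60 FPKM and the cKO hearts 1.64 and 4.67 FPKM. A day later WT hearts held 3.49 and 3.23 FPKM and cKO hearts 1.15 and 1.77 FPKM. The mean of the cKO libraries was 40.2% of the WT mean at E8.5 and 43.4% at E9.5, so transcripts assigned to the gene remained in all 4 cKO libraries. The E8.5 cKO libraries stood far apart from each other. The higher of them, the second, is the library with the highest Prl8a2. The lower, the first, had the highest yolk sac endoderm and primitive erythroid marker sums at E8.5 (4840 and 39565 FPKM). The part of either in the Dgcr8 level was not tested.

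Gene-wide FPKM counts fragments from all exons, including those outside the deleted part of Dgcr8, which is not given in the sources used here. The study's PCR primers for Dgcr8 are shown because they mark the shorter stretch that its own PCR check read. On transcript Dgcr8-001 of GENCODE vM1, which has 14 exons and 4320 bases, the forward primer lies at bases 1081 to 1100 in exon 2 and the reverse primer at bases 1417 to 1437 in exon 4. The product of 357 bases contains all 160 bases of exon 3.
Dgcr8 forward primer: cacggctaaagcaatcgttc
Dgcr8 reverse primer: cctgttcccaagaagtagggt

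Dgcr8 also carries a miRNA hairpin inside its protein-coding sequence, and the microprocessor is known to cut hairpins in Dgcr8's own messenger RNA. The hairpin of mmu-mir-1306 (RefSeq, GRCm38, chr16:18284239-18284317, minus strand) matches bases 524 to 602 of Dgcr8-001, in exon 2 and within the coding sequence, which runs from base 425 to base 2746. It is shown with the 5p and 3p arms in capitals, followed by both mature miRNAs with the seed, bases 2 to 8, in capitals.
mmu-mir-1306 hairpin: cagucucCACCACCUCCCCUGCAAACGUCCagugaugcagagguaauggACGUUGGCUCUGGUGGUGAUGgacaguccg
mmu-miR-1306-5p: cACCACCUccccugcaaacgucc
mmu-miR-1306-3p: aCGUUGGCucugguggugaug

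The table lists Mir1306 at 0 in all 8 libraries, and also Gm24572, a second short feature of 88 bp within the Dgcr8 locus, and Mir693, which lies within the Xpo5 locus. Levels of these hairpins and of mature miRNAs cannot be read from these libraries. Trmt2a, a tRNA methyltransferase gene, shares 808 bp with the Dgcr8 locus, and whether counting used strand is not given in the sources used here. Trmt2a was at 22.1 and 18.2 FPKM (WT) against 17.9 and 10.1 (cKO) at the earlier stage, and 11.6 and 9.65 (WT) against 10.9 and 10.1 (cKO) at the later. Unlike Dgcr8, its WT and cKO libraries overlapped at E9.5.

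By limma's moderated test on log2(FPKM + 1), with Benjamini-Hochberg adjustment over all tested genes and a 1.5-fold minimum, none of the 7 tested genes was called between cKO and WT. The pseudocount of 1 understates changes of low genes such as Dgcr8. The test called few genes of any kind: 0% of tested genes were called lower and 0.00998% higher at E8.5, 0.00998% lower and 0.17% higher at E9.5, and 0.00998% lower and 0.0299% higher for the average of the stages. At an unadjusted p under 0.05 with the same fold minimum, 1 of the 7 genes was lower at E8.5, 1 at E9.5 and 1 in the average, against 6.9%, 9.99% and 9.55% of tested genes.

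The gene past that level at E8.5 was Dgcr8, with a log2 change of -1.19 ± 0.36 (SE; 95% interval of the fold 0.25 to 0.78; limma adjusted p = 0.590). The median tested gene was at -0.28 in the same comparison, and 1.08% of tested genes had a lower value than Dgcr8. At E9.5 Dgcr8 differed by -0.84 ± 0.36 (adjusted p = 0.317) against a median gene of -0.07. Averaged over the stages it differed by -1.01 ± 0.26, a fold of 0.50 with an interval of 0.33 to 0.75, with a limma adjusted p of 0.147. An exact two-sided permutation test of genotype labels within stage gave p = 0.0556, the smallest value that 36 arrangements allow, with 4 of 4 cKO libraries below both WT libraries of their stage. Without the second E8.5 cKO library the averaged difference was -1.29. Without the first E8.5 cKO library, the lower of that pair, it was -0.74. At E8.5 itself the difference was -1.74 without the second and -0.64 without the first of these libraries. The difference between the stage effects was 0.35 ± 0.51 (limma adjusted p = 0.918), and 0.0399% of tested genes were called in either direction for that difference.

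**Figure D2:**
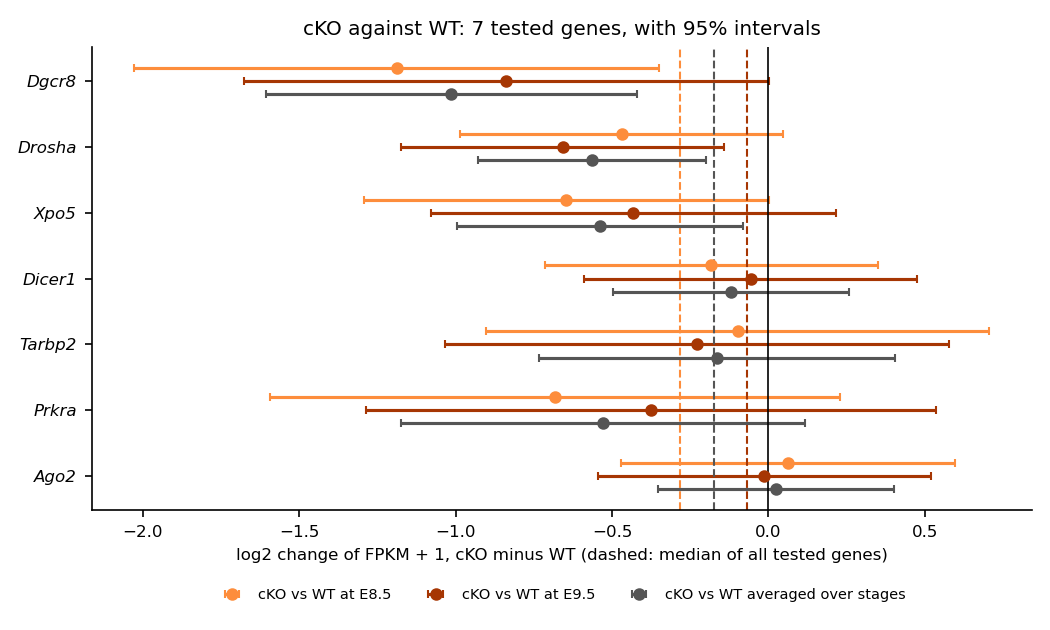
Log2 change of FPKM + 1 (cKO minus WT) for the 7 tested genes at E8.5, at E9.5 and averaged over stages; points are limma estimates, bars 95% intervals, and dashed lines the median of all tested genes in the same colour. Dgcr8 lies farthest to the left, at -1.19, -0.84 and -1.01, and Ago2 lies near 0.

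Drosha (chr15:12824815-12935291), whose product makes the cut that DGCR8 positions, was also lower in all 4 cKO libraries. At E8.5 WT hearts held 13.9 and 14.8 FPKM and cKO hearts 10.4 and 9.75 FPKM. The E9.5 values were 8.07 and 8.08 FPKM for WT against 4.39 and 5.14 FPKM for cKO. These are cKO means of 70.3% and 59.0% of WT, with a spread between replicates well under the gap at both stages. Drosha was the gene at an unadjusted p under 0.05 at E9.5 (log2 change -0.66 ± 0.22, limma adjusted p = 0.220), and its averaged change was -0.56 ± 0.16 (limma adjusted p = 0.151).

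Xpo5 (chr17:46202855-46242299), the export receptor gene, had the same order of libraries. Its levels were 18.9 and 15.9 FPKM (WT) against 13.0 and 8.78 (cKO) at the earlier stage, and 9.35 and 9.79 (WT) against 5.82 and 8.0 (cKO) at the later. The replicates of the cKO groups lay farther apart than for Drosha. The averaged log2 change was -0.54 ± 0.20, with a limma adjusted p of 0.210.

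In all, 3 of the 7 tested genes, Dgcr8, Drosha and Xpo5, had both cKO libraries below both WT libraries at E8.5, where 40.1% of tested genes did. The same 3 did at E9.5 (31.1% of tested genes) and therefore at both stages (18.3%). The median gene was itself lower in cKO at E8.5, so the libraries were also compared after bringing them to a common median ratio; counting the order of libraries under this scaling was added after the values had been seen. The 3 genes kept this order at both stages, where 5.32% of tested genes did, and Drosha's averaged difference was then -0.35 and that of Xpo5 -0.32, against -0.82 for Dgcr8. With quantile normalization Dgcr8 and Drosha kept it (7.04%) and Xpo5 overlapped at E8.5.

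Dicer1 (chr12:104687742-104751952) showed little difference by genotype. Its levels were 2.09 and 1.86 FPKM (WT) against 1.32 and 1.96 (cKO) at the earlier stage, and 0.547 and 0.555 (WT) against 0.613 and 0.380 (cKO) at the later. WT and cKO overlapped at both stages. The averaged fold was 0.92 with a 95% interval of 0.71 to 1.20.

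The genes for the partners of DICER behaved differently from each other in spread. Tarbp2 (chr15:102518192-102523676) was at 59.6 and 57.1 FPKM (WT) against 76.9 and 38.4 (cKO) at the earlier stage, and 52.1 and 43.6 (WT) against 44.4 and 37.0 (cKO) at the later. The E8.5 cKO libraries lay on either side of the WT libraries, and the averaged fold was 0.89 (interval 0.60 to 1.32). Prkra (chr2:76629937-76647994) was at 47.4 and 28.3 FPKM (WT) against 30.4 and 16.5 (cKO) at the earlier stage, and 14.5 and 12.6 (WT) against 7.95 and 13.0 (cKO) at the later. Its groups overlapped at both stages, and the averaged log2 change of -0.53 ± 0.28 had a limma adjusted p of 0.356.

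Ago2 (chr15:73101625-73184947), the gene of the slicing Argonaute, was almost level between genotypes. Levels were 2.70 and 2.35 FPKM (WT) against 2.54 and 2.82 (cKO) at the earlier stage, and 1.62 and 1.39 (WT) against 1.82 and 1.19 (cKO) at the later. The averaged fold was 1.02 with a 95% interval of 0.78 to 1.32, so a 1.5-fold change in either direction lay outside the interval on this scale. The direction of so small a difference turned with the choice of library left out.

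Ago3, Ago1 and Ago4 lie in this order on chromosome 4 (chr4:126340678-126429542, chr4:126435013-126468421 and chr4:126489543-126533458), separated by 5470 and 21121 bp. Ago1 was at 1.12 and 0.452 FPKM (WT) against 0.641 and 0.757 (cKO) at the earlier stage, and 0.375 and 0.166 (WT) against 0.290 and 0.191 (cKO) at the later. Ago3 was at 0.272 and 0.417, 0.366 and 0.438, 0.0866 and 0.267, and 0.189 and 0.0883 FPKM in the same groups. For both genes WT and cKO overlapped at each stage. Ago4 was between 0.0102 and 0.0915 FPKM, with both cKO libraries below WT at E8.5 and overlap at E9.5. After scaling to relative depth, its levels in the order of the groups were 8 and 7, 2 and 4, 1 and 3, and 5 and 2 times the lowest, within 0.0326 of whole steps, so its differences rest on a few steps of the smallest value.

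Within a library, sums of FPKM can be compared without the scaling between libraries. Ago2 made up 64.6% to 80.0% of the summed FPKM of the 4 Argonaute genes in every library, Ago1 8.98% to 26.7%, Ago3 4.14% to 14.4% and Ago4 0.465% to 2.19%. The Ago2 share was 68.1% ± 5.06 (SD, n = 2) in E8.5 WT, 70.4% ± 1.27 in E8.5 cKO, 76.4% ± 1.5 in E9.5 WT and 78.8% ± 1.72 in E9.5 cKO. It was higher in every E9.5 library than in every E8.5 library, by 8.32 percentage points on average within genotype (exact two-sided permutation p = 0.0556, adjusted over 14 tests 0.259). With 1 FPKM added to each gene before the shares were taken, which is above most levels of Ago1, Ago3 and Ago4, the difference turned to -4.31 points. By genotype the shift was 2.33 points (exact permutation p = 0.278, adjusted 0.556).

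**Figure D3:**
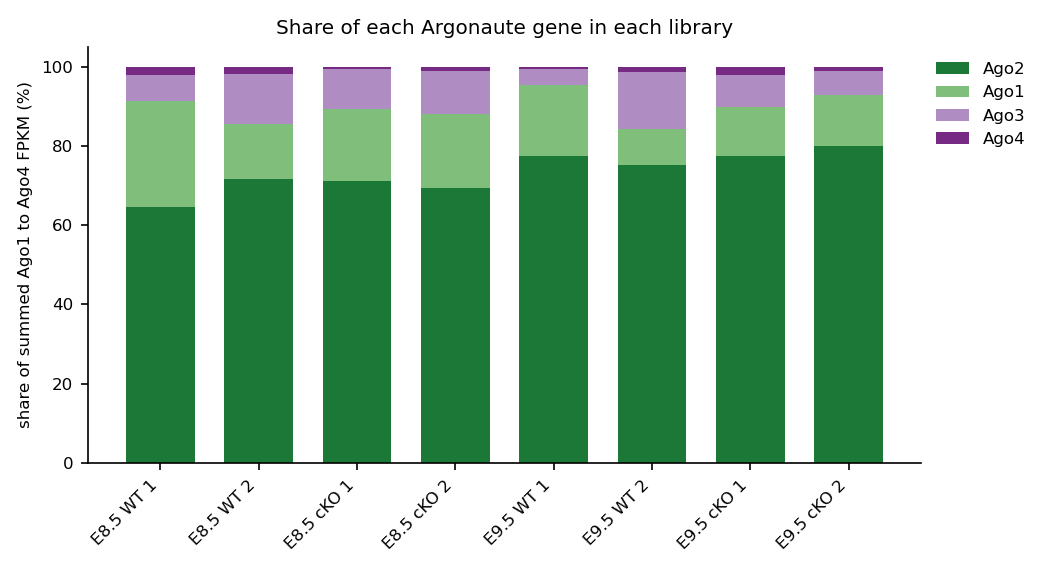
Stacked bars give the share (percent, from 0) of Ago2, Ago1, Ago3 and Ago4 in their summed FPKM in each of the 8 libraries. Ago2 makes up 64.6% to 80.0% of every bar and is higher in the 4 E9.5 libraries than in the 4 E8.5 libraries, a direction that turned to -4.31 points with 1 FPKM added to each gene.

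Ratios of the microprocessor genes asked whether Dgcr8 differed relative to its partner. At E8.5 the log2 ratio of Dgcr8 to Drosha was -0.97 and -0.79 for WT hearts and -2.67 and -1.06 for cKO hearts. The E9.5 ratios were -1.21 and -1.32 for WT against -1.93 and -1.54 for cKO. Every cKO library was below both WT libraries of its stage, by 0.73 on average, which the exact permutation test gave the smallest p it allows (0.0556, adjusted 0.259). The difference was -0.33 without the first E8.5 cKO library and -1.13 without the second. The ratio of Tarbp2 to Prkra was 0.93 higher at E9.5 than at E8.5 on the log2 scale (exact permutation p = 0.0556, adjusted 0.259). With 36 arrangements none of these 14 tests can reach 0.05.

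From E8.5 to E9.5 all 10 genes were lower in WT, with both E9.5 libraries below both E8.5 libraries. Among the 7 tested genes this was 7 of 7, but 80.1% of all tested genes had the same order. In cKO 5 of the 7 did, against 62.7% of tested genes, and Dgcr8 and Tarbp2 overlapped, as did Ago4. The direction is thus that of most genes in the table: the median tested gene fell by 0.84 in WT and by 0.64 in cKO on the log2 scale.

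By limma's test 5 of the 7 genes were called lower at E9.5 in WT, where 46.7% of tested genes were called lower and 1.4% higher. Prkra fell by 1.38 ± 0.40 (adjusted p = 0.0266), Dgcr8 by 1.02 ± 0.36 (0.0492), Dicer1 by 0.94 ± 0.23 (0.0185), Xpo5 by 0.79 ± 0.28 (0.0472) and Drosha by 0.76 ± 0.22 (0.0285). Ago2 differed by -0.49 ± 0.23 (limma adjusted p = 0.104) and Tarbp2 by -0.29 ± 0.35 (0.490). Taken against the median gene, Prkra was 0.54 lower and Dgcr8 0.18 lower, Dicer1 0.10 lower, Xpo5 0.04 and Drosha 0.08 higher, Ago2 0.34 higher and Tarbp2 0.55 higher. These distances depend on the pseudocount. With 0.1 in place of 1, Dicer1 fell by 1.67 and the median gene by 1.03. In linear terms Dicer1 at E9.5 was at 27.9% of its E8.5 level, Prkra at 35.8% and Tarbp2 at 82.0%. Dicer1 reached the filter of 1 FPKM only through its E8.5 level, with WT means of 1.97 FPKM at E8.5 and 0.551 FPKM at E9.5. The filter thus favoured a fall of this gene. Fitted without the filter, its WT call held (limma adjusted p = 0.0332). When the libraries were brought to a common median ratio or quantile normalized, none of the 7 was called, Drosha, Xpo5, Ago2 and Tarbp2 turned to the other direction, and 2 of the 7 kept separate libraries, Dgcr8 and Dicer1 (median ratio, 29.1% of tested genes) or Dicer1 and Prkra (quantile, 26.9%), which is near the share of all genes. None was called either without the first or second E8.5 WT library or without the first or second E9.5 WT library.

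In cKO hearts 2 of the 7 genes were called lower at E9.5, against 28.5% of tested genes lower and 2.05% higher. These were Drosha, which fell by 0.95 ± 0.22 (limma adjusted p = 0.0233), and Dicer1, which fell by 0.81 ± 0.23 (adjusted p = 0.0358). Dicer1 averaged 1.64 FPKM in cKO at E8.5 and 0.496 FPKM at E9.5, so it reached the filter only through E8.5. Its cKO call was lost without the filter (limma adjusted p = 0.0593). Dgcr8 differed by -0.67 ± 0.36 (limma adjusted p = 0.177), and without the first E8.5 cKO library, the lower of the pair, it fell by 1.22 and was called (adjusted p = 0.0216, with a range of 0.0216 to 0.919 over all alternatives). Neither of the 2 calls held with either scaling, without either E8.5 WT library or without either E9.5 cKO library. That of Dicer1 was also lost without either E9.5 WT library and without the second E8.5 cKO library, and it held in 3 of 16 alternatives.

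**Figure D4:**
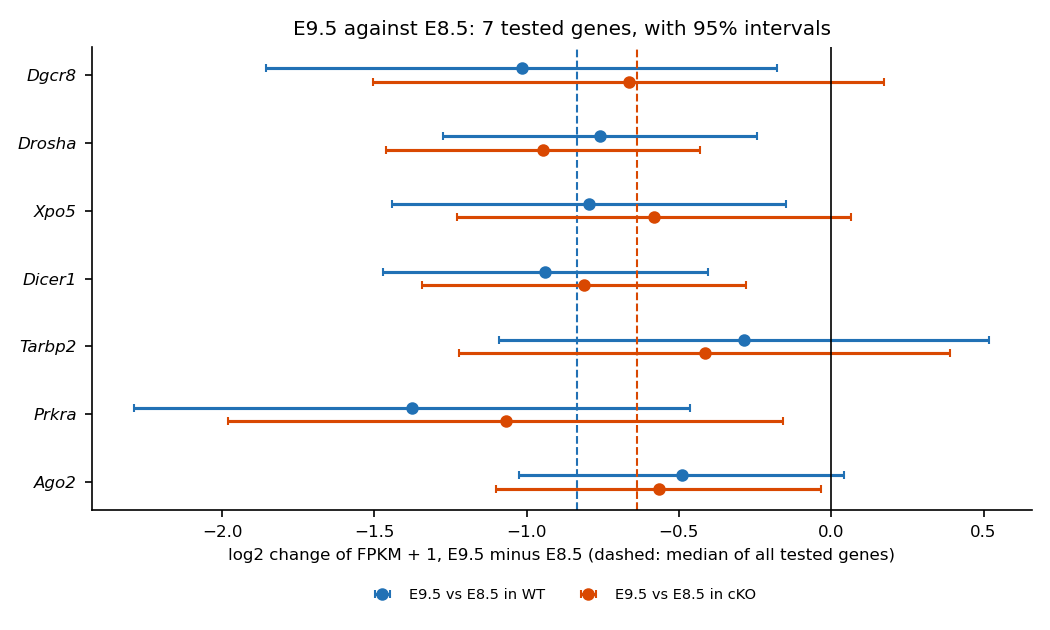
Log2 change of FPKM + 1 (E9.5 minus E8.5) for the 7 tested genes in WT and in cKO; points are limma estimates, bars 95% intervals, and dashed lines the median of all tested genes in the same colour (-0.84 in WT, -0.64 in cKO). On this scale, which compresses changes of low genes such as Dicer1, most points lie near the dashed lines, with Prkra to the left and Tarbp2 to the right.

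The 5 tested genes whose pattern over the 8 libraries was most like that of Dgcr8 were 1300002E11Rik, Hars2, Inip, Ube2d1 and Tmem167b. Likeness was the root mean square difference of mean-centred log2(FPKM + 1), which was 0.191, 0.240, 0.247, 0.254 and 0.284 for these genes against a median of 0.652 over all tested genes. 1300002E11Rik, a gene on chromosome 16 (chr16:21794347-21809039), was at 7.66 and 8.63 FPKM (WT) against 2.30 and 6.27 (cKO) at the earlier stage, and 3.03 and 2.78 (WT) against 1.05 and 1.62 (cKO) at the later. Hars2 encodes a mitochondrial histidyl-tRNA synthetase, and Ube2d1 a ubiquitin-conjugating enzyme. Among the other 6 tested members Drosha was most like Dgcr8, at rank 233 (0.402), followed by Xpo5 at rank 1323 and Dicer1 at rank 1800 of 10018.

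The wider pathway was followed in 5 lists of 68 genes, 63 of them tested: microprocessor cofactors and regulators, nuclear export, Argonaute loading chaperones, silencing effectors, and tailing and decay of precursor and mature miRNAs. None was called between genotypes with all libraries. Without the second E8.5 cKO library Ncbp2 was called lower at E9.5 and in the average of the stages, and no other alternative called a pathway gene. At E8.5 3 of 63 passed the unadjusted level on the lower side (6.9% of tested genes were). At E9.5 15 of 63 were lower and 1 was higher, where 9.99% and 5.08% of tested genes were, and in the average of the stages 13 were lower (9.55% of tested genes). The E9.5 count fell well under 15 without the first E9.5 cKO library or without the second E9.5 WT library, and the share of all tested genes also fell. The averaged count of 13 was 4 with median-ratio or quantile scaling (3.12% and 3.47% of tested genes), 6 without the first E9.5 cKO library (6.44%), and 8 without the first E8.5 WT library or the second E9.5 WT library (7.51% and 8.37%).

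Of the 15 genes lower at E9.5, 14 lay in the microprocessor, export and chaperone lists, and the other was Limd1 of the silencing effectors. Of 14 tested microprocessor cofactors and regulators, 8 were lower at an unadjusted p under 0.05, and the median of the list was -0.98 against -0.07 for all tested genes. Srsf3, a splicing factor that helps position the microprocessor, measured 240 and 384 FPKM (WT) against 48.1 and 104 FPKM (cKO) (log2 change -2.09 ± 0.44, limma adjusted p = 0.112). Ddx5, a helicase found with DROSHA, measured 164 and 338 FPKM (WT) against 70.4 and 96.9 FPKM (cKO) (-1.5 ± 0.39, adjusted p = 0.142). Ncbp2, a subunit of the nuclear cap-binding complex, measured 22.1 and 27.8 FPKM (WT) against 7.93 and 9.80 FPKM (cKO) (-1.39 ± 0.34, limma adjusted p = 0.127). Without the first E9.5 cKO library, in which features shorter than 300 bp took 54.5% of the summed FPKM, the count of 8 was 4, against 4.02% of tested genes, and without the second E9.5 WT library it was 5 (5.55%).

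Of the 6 chaperones that load Argonaute, 3 were lower at that level (9.99% of tested genes were) and the median was -0.82. Ptges3, the HSP90 co-chaperone p23, measured 108 and 156 FPKM (WT) against 24.5 and 43.0 FPKM (cKO) (-1.96 ± 0.47, limma adjusted p = 0.127). Of the 5 export genes, 3 were lower, led by Rcc1 and Ran, the exchange factor and the GTPase that exportin 5 depends on (-0.84 ± 0.24 and -0.86 ± 0.27, limma adjusted p = 0.158 and 0.187). The 24 silencing effectors had a median of -0.13, with Limd1 lower and Mov10, an RNA helicase found with Argonaute, higher. Mov10 measured 10.8 and 6.05 FPKM (WT) against 18.8 and 16.3 FPKM (cKO) (1.02 ± 0.40, limma adjusted p = 0.283). Mov10 was not past the unadjusted level without the filter, without variance moderation, without the second E9.5 WT library or without either E9.5 cKO library. Limd1 was not past it with median-ratio scaling or without the second E9.5 WT library. Without the first E9.5 cKO library 1 chaperone and 1 export gene were lower at that level (4.02% of tested genes), without the second E9.5 WT library 1 chaperone and 2 export genes (5.55%), and without the first E9.5 WT library 3 and 1 (10.4%). None of the 14 tailing and decay genes was past the unadjusted level at E9.5.

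**Figure D5:**
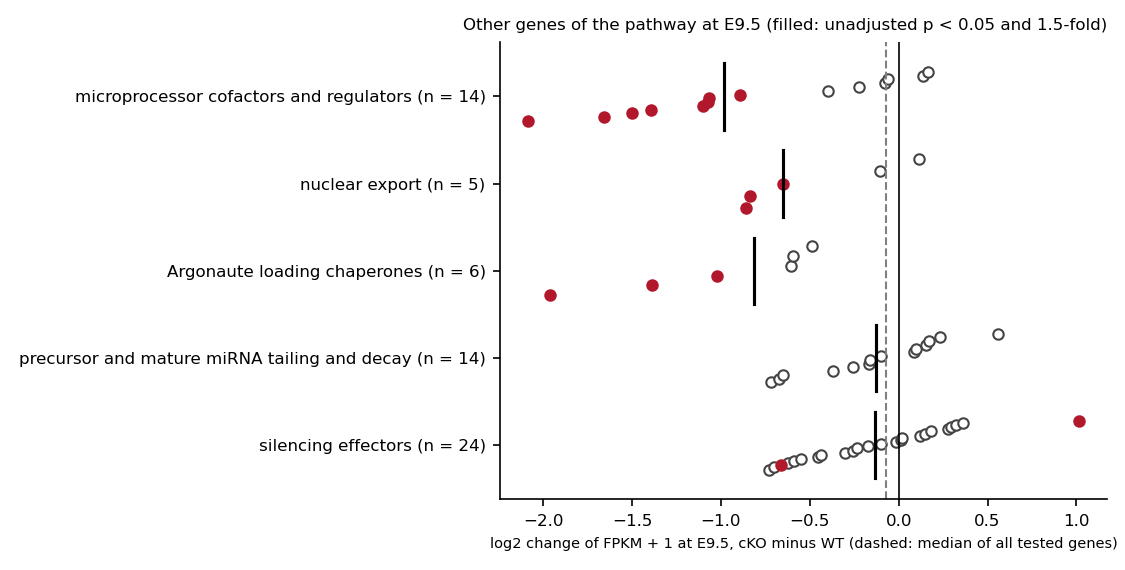
Log2 change of FPKM + 1 at E9.5 (cKO minus WT) for the 63 tested genes of the 5 pathway lists; each circle is a gene, filled where the unadjusted limma p was under 0.05 and the change at least 1.5-fold, thick lines are list medians and the dashed line is the median of all tested genes (-0.07). Filled circles below 0 number 8 of 14 microprocessor, 3 of 5 export and 3 of 6 chaperone genes, and none was called after adjustment.

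At E8.5 the 3 genes at the unadjusted level were Lin28a, Trim71 and Rqcd1. The count was 0 with either scaling (0.848% and 1.18% of tested genes), 1 without the first E8.5 WT library (2.22%), and 7 without the first or the second E8.5 cKO library (23.1% and 7.56%). Lin28a binds let-7 precursors and promotes their decay, and measured 48.7 and 71.0 FPKM (WT) against 24.5 and 34.0 FPKM (cKO) (-1.0 ± 0.29, limma adjusted p = 0.590). It also changed strongly between stages. In WT it was at 7.45 and 6.61 FPKM at E9.5 and fell by 2.90 ± 0.29 (limma adjusted p = 0.00517), and in cKO it was at 5.13 and 5.29 FPKM and fell by 2.27 ± 0.29 (limma adjusted p = 0.0148), a call lost without either E9.5 cKO library. Trim71, a ubiquitin ligase that is itself a known let-7 target, fell by 2.13 ± 0.24 in WT (limma adjusted p = 0.00714), a call lost with quantile normalization and without the first E8.5 WT library.

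Between stages 28 of the 63 pathway genes were called lower and 1 higher in WT, where 46.7% and 1.4% of tested genes were, and 22 were lower and 1 higher in cKO, where 28.5% and 2.05% were. These counts rested on single libraries and on the scaling. In WT the 28 became 2 after scaling to a common median ratio (0.689% of tested genes) and 1 after quantile normalization (0.279%). It became 12 without variance moderation (23.1%). Far fewer were also called without the first or second E8.5 WT library or the first E9.5 WT library, and this held for tested genes as a whole. In cKO the 22 became 1 with either scaling (0.769% and 0.509% of tested genes) and 4 without variance moderation (8.82%). Without the filter it was 9 of 68 (5.61%). The cKO calls were lost without either E9.5 cKO library, as were nearly all such calls over tested genes, and fewer were made without the second E8.5 cKO library. Lin28a was called lower in WT under all of these alternatives. The gene higher in WT was Hspa8, the HSC70 chaperone (1.21 ± 0.40, limma adjusted p = 0.0394), and the gene higher in cKO was Mov10 (1.29 ± 0.40, adjusted p = 0.0460). In WT 10 of 14 tailing and decay genes were called lower, with a median of -1.08, and 13 of 24 silencing effectors, with a median of -0.94. Cnot1, the scaffold of the CCR4-NOT deadenylase, fell by 1.48 ± 0.33 in WT and by 1.46 ± 0.33 in cKO (limma adjusted p = 0.0157 and 0.0215). Nup153, a nuclear pore gene, fell by 1.38 ± 0.26 and 1.31 ± 0.26 (limma adjusted p = 0.0127 and 0.0174). Nup153 was at 2.28 to 3.66 FPKM at E8.5 and 0.404 to 0.819 FPKM at E9.5, so it reached the filter only through E8.5. Its calls in WT and cKO held without the filter. These falls stand beside medians of all tested genes of -0.84 and -0.64, and the calls of Cnot1 and Nup153 were lost with either scaling and, in WT, without the first or second E8.5 WT library or the first E9.5 WT library, and in cKO without either E9.5 cKO library. That of Cnot1 was also lost without variance moderation, and in cKO without the filter. The call of Hspa8 was lost without any single WT library, with quantile normalization, with rescaling to loci of at least 300 bp, without the filter and without variance moderation. That of Mov10 was lost without either E8.5 WT or E9.5 cKO library or the second E8.5 cKO library, without the filter, without moderation and with only the compared libraries.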

How the data were processed

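The deposited table gave FPKM that the authors calculated for each of 8 libraries. Per the study's methods, cDNA was amplified from total RNA by Smart-seq2 (the labels name a SMARTer kit), sequenced (Illumina), and reads were placed on mm9 by BWA; the program that made FPKM is not given in the sources used here. Positions in the table matched GRCm38 (starts within 1000 bp for 91.7% of 9513 matched genes), so coordinates are given on that build, counted from 1. The table held 24930 entries; for 285 repeated symbols only the most abundant was used, and 27 date-like symbols were kept apart by locus. Because FPKM are relative to the library total, abundant transcripts move all other genes. The absolute depth is unknown; relative depth, from steps of low values, ranged from 1 to 1.45.

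Values were analysed as log2(FPKM + 1) with limma 3.58.1 in R 4.3.3 (mean-variance trend, 4 group means, all 8 libraries in 1 fit), tested on simulated data. A gene was called at a Benjamini-Hochberg adjusted p under 0.05 and 1.5-fold. Genes averaging 1 FPKM or more, 10018 in number, were tested. Group means are given with SD and log2 changes with SE. Named genes were all members, the 5 genes most like Dgcr8, features overlapping a member, and, from each pathway list, called genes or those with the smallest unadjusted p. Members and lists were chosen with earlier results of these data known. Alternatives were another pseudocount, no filter, 3 scalings, a replicate block, separate fits, no moderation and leaving out each library. Replicate numbers were treated as names. Correlations of same-numbered deviations ran from -0.116 to 0.195, and with 2 libraries a group they cannot decide whether the numbers pair libraries. Sequences came from RefSeq, GENCODE vM1 and the study's primer list. Python 3.11.15, pandas 2.3.3 and matplotlib 3.10.9 were used.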

Additional observations from a re-analysis of the deposited data

How the results depend on the processing

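None of the 7 tested genes was called between genotypes at E8.5 or at E9.5 under any alternative, and in the average of the stages 0 to 1 was called when each library was left out. The counts called lower from E8.5 to E9.5 were the least stable. In WT the count of 5 became 3 with a pseudocount of 0.1 (45.7% of tested genes lower), 2 without the filter (16.7%), 2 without variance moderation (23.1%), and 0 with median-ratio scaling or quantile normalization, and it was 0 to 5 when each library was left out; the replicate block left 4, the call of Xpo5 being lost (adjusted p = 0.057, with a range of 0.0195 to 0.813 over its alternatives). In cKO the count of 2 became 1 without the filter (5.61%), 1 with the replicate block (24.4%), 1 without moderation (8.82%), and 0 with either scaling or with only the compared libraries (13.9%), and it was 0 to 3 when each library was left out. The higher share of all stage calls went from 2.90% to 82.3% (median ratio) and 72.8% (quantile) in WT and from 6.69% to 83.9% and 82.8% in cKO. The median gene went from -0.84 to -0.043 and -0.039 in WT and from -0.64 to -0.046 and -0.021 in cKO. The number of tested members with separate libraries became 5 for cKO below WT at E9.5 after rescaling to loci of at least 300 bp (30.7% of tested genes), and 2 for E9.5 below E8.5 in WT (29.1% and 26.9%) and 2 in cKO (28% and 27.6%) with median ratio or quantile scaling. Over all genes, the WT count of 4683 lower became 28 without the first E8.5 WT library, 184 without the second, 48 without the first E9.5 WT library, 2204 without the second, 69 with median ratio and 28 with quantile scaling. The cKO count of 2857 became 0 and 1 without the first and second E9.5 cKO library and 77 and 51 with these scalings. The replicate block left 4523 genes lower in WT and 2441 in cKO, and numbers crossed in E9.5 WT, added after the data were seen, left 4268 in WT. Replicate numbers were treated as names, and correlations of deviations from -0.116 to 0.195 cannot decide whether they pair libraries.

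Some directions turned. With median ratio and quantile scaling in that order, the E8.5 genotype change was 0.049 and 0.0059 for Dicer1 and 0.25 and 0.22 for Tarbp2, and the WT stage change 0.15 and 0.24 for Drosha, 0.13 and 0.20 for Xpo5, 0.16 and 0.33 for Ago2, and 0.69 and 0.44 for Tarbp2. The cKO stage change was 0.10 and 0.16 for Xpo5 and 0.33 and 0.26 for Tarbp2, the averaged change of Tarbp2 0.070 and 0.13, and the difference of stage effects -0.073 and -0.11 for Dicer1 and -0.031 and -0.043 for Xpo5. With median ratio alone, Ago2 at E9.5 was 0.060 and averaged Dicer1 0.012. With quantile alone, Tarbp2 at E9.5 was 0.033, Ago2 between cKO stages 0.045 and the Dgcr8 difference of stage effects -0.034. Rescaling to longer loci gave Ago2 -0.0067 at E8.5 and -0.0078 averaged. A pseudocount of 1 before the ratios, above most Argonaute levels, turned the stage differences of the Ago2, Ago3 and Ago4 shares to -4.31, 1.78 and 3.71 points and that of Dgcr8 to Drosha to 0.012.

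Leaving out each library in turn gave ranges across 0. These were, by genotype, -0.0076 to 0.13 (Ago2) and -0.59 to 0.39 (Tarbp2) at E8.5, -0.17 to 0.056 (Dicer1) and -0.20 to 0.17 (Ago2) at E9.5, and -0.066 to 0.12 (Ago2) and -0.41 to 0.082 (Tarbp2) averaged. Tarbp2 between cKO stages ran from -0.91 to 0.075. The difference of stage effects ran from -0.20 to 0.90 for Dgcr8, -0.049 to 0.30 for Dicer1, -0.045 to 0.47 for Xpo5, -0.26 to 0.11 for Ago2, -0.62 to 0.36 for Tarbp2 and -0.11 to 0.73 for Prkra. Shares ran from -4.62 to 1.84 points for Ago1 and -3.26 to 1.89 for Ago3 by genotype, and from -4.50 to 0.64 for Ago3 and -0.35 to 0.058 for Ago4 by stage, and the Dgcr8 to Drosha ratio ran from -0.53 to 0.27 by stage. The causes were not tested. With 2 libraries a group, p-values rest on a spread pooled over groups, and the unknown depth leaves Ago1, Ago3 and Ago4 without a counting interval.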
